A study of Mus musculus with 2 samples.

Results

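Bone morphogenetic proteins (BMPs) and the proteins that restrain them were read here as 10 genes of the 31053 in the deposited count matrices. The rule lists them by name and uses no measured value, though it was written with earlier results of these data known. They are the ligand genes Bmp2, Bmp4, Bmp5, Bmp7 and Gdf6, the secreted antagonists and modulators Grem1, Nog, Bmper and Fst, and the membrane pseudoreceptor Bambi. The study dissected the aorta-gonads-mesonephros region (AGM), the embryonic tissue around the dorsal aorta where haematopoietic stem cells first arise, from mouse embryos at E11. It compared PDGFRB +/+ (WT) embryos with PDGFRB -/- (KO) embryos, which carry no functional copy of the PDGFRβ receptor gene, by droplet single-cell RNA-seq of the whole, unsorted region after collagenase dissociation. Each genotype is 1 library, and the labels give no number of embryos behind it. Levels therefore carry no replicate error, no test between genotypes was possible, and every interval below is a 95% interval for counting error only.

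BMPs are secreted dimers that bring together type I and type II serine/threonine kinase receptors, which phosphorylate Smad1, Smad5 and Smad9. These move with Smad4 into the nucleus and switch on targets such as the Id and Msx genes, while Smad6 and Smad7 inhibit the relay. Noggin, gremlin and follistatin bind ligands outside the cell and keep them from the receptors, and BMP4 from the mesenchyme under the aorta is known as a signal for the formation of blood stem cells.

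Barcodes with at least 2000 unique molecular identifiers (UMIs) and under 10% mitochondrial UMIs were kept, which left 8253 WT and 8165 KO cells with medians of 13321 and 12391 UMIs. Pdgfrb, the deleted gene, was at 43.1 CPM (UMIs of the gene in 1000000 summed UMIs) in all WT cells and at 7.09 CPM in KO cells, where 801 cells still held a Pdgfrb UMI. The libraries differed in more than genotype. Xist was at 793 CPM in WT against 0.415 CPM in KO, and Y-linked genes were at 0.0266 and 163 CPM, so that genotype, sex of the embryos, dissection and library cannot be told apart. Gastro-splenic mesenchyme made up 92 WT cells and 1 KO cell, and 20 barcodes occurred in both libraries. Barx1, a marker of that mesenchyme, was at 303 CPM in the 92 WT cells. Outside that mesenchyme Barx1 was at 30.7 CPM in WT against 0.696 CPM in KO. Other WT cells thus also held this RNA, and their part in the ratios below was not tested.

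Cells were assigned to 14 classes by fixed marker genes, and 11 classes held at least 50 cells in both libraries. The assignment covered 91.9% of WT and 91.7% of KO cells, and 39 of 40 comparisons of separate check markers were higher inside their class than outside it. The exception was Postn in KO mesenchyme, at 0.971 times the outside level. The minimum marker levels of the classes were set from the marker genes and these check markers. The 39 of 40 is therefore not an independent check of the classes. Stroma means the sum of sclerotome, smooth muscle, gastro-splenic mesenchyme, Tcf21-positive mesenchyme and the remaining mesenchyme (called other mesenchyme), in all 5688 WT and 6087 KO cells. The make-up of the stroma moved between the libraries: sclerotome was 12.8% of WT and 20.1% of KO cells, smooth muscle 6.74% and 3.94%, and Tcf21-positive mesenchyme 17.7% and 14.0%. Coelomic epithelium and gonadal ridge, counted outside the stroma, was 4.23% and 2.20%.

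**Figure D1:**
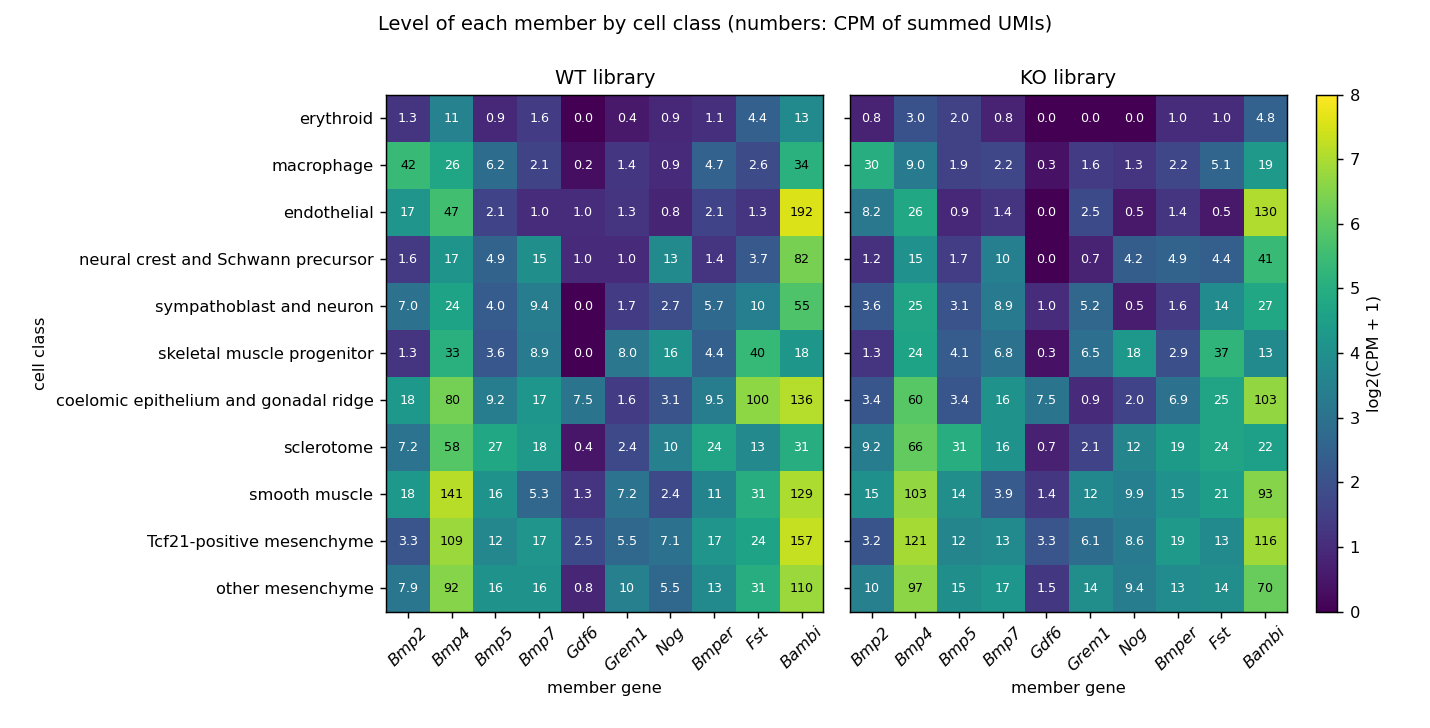
Level of each of the 10 genes (columns) in the 11 cell classes (lines) of the WT library (left panel) and the KO library (right panel). The printed numbers are the CPM of the class and the colour is log2(CPM + 1) from 0 to 8. Bmp4 and Bambi were spread over the mesenchymal classes, whereas Bmp5 and Bmper were highest in sclerotome, Gdf6 in coelomic epithelium and Nog in muscle progenitors in both libraries.

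Of the 10 genes, 7 were highest in the same class in both libraries, counted over those 11 classes. Among these 7, the interval of the leading class met the next for Grem1 in both libraries, Nog in WT, and Bmper and Bambi in KO. It also did in both libraries for Bmp7, whose leading class differed. Bmp5 and Bmper shared the sclerotome, the part of the somites that forms vertebrae and ribs. Over the 22 points given by 11 classes and 2 libraries, their log2(CPM + 1) levels had a Pearson r of 0.896, the largest of all pairs among the 10 genes. The points share libraries and depth, so the value is a description. Within the stroma the same pair was found together in 290 WT cells against an expected 234.2, and in 301 KO cells against 243.2, a ratio of 1.24 in both libraries. That ratio was not particular to this pair. Bmp2 with Bmp5 had 1.24 in WT and 1.32 in KO, and Nog with Bmper 1.22 and 1.27, while Bmp5 with Bmp7 had 0.733 and 0.823. For Bmp5 and Bmper the expected counts lie above the plain product of the shares of stromal cells with a UMI. Those shares were 19.0% for Bmp5 and 15.8% for Bmper in WT, and 19.8% and 15.6% in KO. Stromal cells differ in depth and class, and what the ratio rests on was not tested. Both genes lie on chromosome 9 on the plus strand (GRCm38, GENCODE M21), Bmper at 23223076-23485200 and Bmp5 at 75775364-75900310. The stretches that end at the base before each gene start are shown because these genes had the same leading class. They are RefSeq sequence of GRCm38.p6, 5′ to 3′, at chr9:75775115-75775363 (249 bases) for Bmp5 and chr9:23222826-23223075 (250 bases) for Bmper, with a match to the GC box GGGCGG in capitals.
Bmp5: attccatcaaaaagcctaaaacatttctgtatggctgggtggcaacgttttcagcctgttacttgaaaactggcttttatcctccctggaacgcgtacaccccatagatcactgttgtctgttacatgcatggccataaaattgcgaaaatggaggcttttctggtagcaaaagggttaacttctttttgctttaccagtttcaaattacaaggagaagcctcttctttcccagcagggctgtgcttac
Bmper: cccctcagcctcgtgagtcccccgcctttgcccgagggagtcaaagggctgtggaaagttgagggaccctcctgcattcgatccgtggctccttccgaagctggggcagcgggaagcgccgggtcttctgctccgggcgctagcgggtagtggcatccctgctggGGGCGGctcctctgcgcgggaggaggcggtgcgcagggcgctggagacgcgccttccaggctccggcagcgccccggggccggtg

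The stretches were unlike each other in base composition. Bmp5 had 43.0% G and C and Bmper 71.6%, on either side of the median of 52.4% over 32851 such stretches. The 5 motifs were searched on both strands at their plain letters, and overlapping matches were not merged. Bmper held 1 GC box, present in 32.7% of all stretches, and Bmp5 held none of the 5: GC box, the SMAD element GGCGCC (9.59% of stretches), the SOX core ACAAT (27.7%), the TATA box TATAAA (12.4%) and CCAAT (33.8%). Of the other genes, Bmp4 and Grem1 were also in the promoter table. Bmp4 held 1 GC box, and Grem1 held 3 GC boxes, 1 SMAD element and 1 CCAAT. A match is a run of letters and not a bound site.

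Bmp4 is the ligand best known from the AGM. Of its UMIs, 84.8% in WT and 90.8% in KO lay in the stroma, which held 66.8% and 72.8% of all UMIs. Its stromal level was 95.6 CPM in WT against 95.1 CPM in KO, a log2 KO over WT of -0.01 (interval -0.05 to 0.03), and 49.0% and 46.6% of stromal cells held a UMI (14.9% and 15.4% after each cell was thinned to 2000 UMIs). Beneath these near-equal sums the order of the stromal classes differed between the libraries. In WT, smooth muscle led with 140.7 CPM (134 to 148), above Tcf21-positive mesenchyme at 109.4 CPM (106 to 113). In KO, Tcf21-positive mesenchyme led with 120.6 CPM (116 to 125), above smooth muscle at 103.0 CPM (95.7 to 111). These counting intervals did not overlap within either library, but they take UMIs as independent. In WT smooth muscle 40 of 556 cells held 40.0% of the UMIs. The thinned shares of cells with a UMI had overlapping intervals. In WT they were 19.8% (16.6 to 23.3) in smooth muscle and 18.1% (16.1 to 20.2) in Tcf21-positive mesenchyme. In KO they were 18.3% (14.3 to 23.0) and 21.2% (18.9 to 23.7). Smooth muscle had a log2 ratio of -0.45 (-0.58 to -0.32), short of 1.5-fold, the size called a difference throughout. Sclerotome had the lowest Bmp4 of the stromal classes with at least 50 cells in both libraries, at 58.3 and 66.4 CPM. The study reports Bmp4 as significantly lower in the KO counterpart of the cluster that holds all PDGFRβ-positive WT cells. It compared single cells by a rank-sum test after KO cells with Pdgfrb expression were removed, so its measure and cells differ. With Pdgfrb-positive cells removed from KO alone, the log2 ratio here was -0.07 in stroma and -0.63, past 1.5-fold, in smooth muscle.

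Outside the mesenchyme, Bmp4 ratios past 1.5-fold appeared in endothelial, macrophage and erythroid cells. Endothelial Bmp4 was 47.0 CPM (40.4 to 54.4) in WT against 26.2 CPM (21.6 to 31.4) in KO, for a log2 ratio of -0.85 (-1.20 to -0.50). The gap was wider in the cells with a UMI of Kit: 50.3 and 22.1 CPM, against 39.9 and 35.7 CPM in endothelial cells without one. The study used Kit to identify blood cell clusters in the aorta and defined blood-forming endothelium as low or negative for Kit. A UMI of Kit thus does not mark that endothelium, and the split also depends on depth. It also rested on few cells, since 5 WT endothelial cells held 51.9% of the UMIs and 1 held 43, and when CPM was taken per cell and averaged the endothelial ratio was -0.24, under 1.5-fold. In macrophages Bmp4 was 25.6 CPM in WT against 8.95 CPM in KO (108 and 28 UMIs), a ratio that turned to 0.25 on the log2 scale without Pdgfrb-positive cells in both libraries, and in erythroid cells 10.7 and 3.01 CPM. Mesenchyme markers moved the same way in these classes, at 286 and 127 CPM in endothelial cells, 576 and 355 CPM in macrophages and 279 and 78.3 CPM in erythroid cells, beside 2925 and 2105 CPM in stroma, and their part in these values was not tested. Of all genes with at least 100 UMIs, 3.98% were as much lower in KO endothelial cells, 4.85% in macrophages and 50.7% in erythroid cells. In erythroid cells 2 of the 10 genes had enough UMIs, Bmp4 and Bambi, and both were lower, with log2 ratios of -1.83 and -1.47 beside a median of -0.59 over all genes.

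The share of erythroid cells with a UMI served as the background for shares of cells, because red cells are not known as a source of these proteins. For Bmp4 it was 7.47% in WT and 2.54% in KO, at median depths of 16743.5 and 19497 UMIs (1.09% and 0% after thinning), against stromal medians of 12857 and 12276 UMIs. For the other genes except Bambi it lay between 0% and 2.72%. Bambi reached 8.29% in WT and 5.58% in KO erythroid cells. Globin RNA took much of the erythroid depth. Hbb-y was at 343683 and 388609 CPM there, and Hba-x at 120096 and 107242 CPM. Fewer UMIs were thus left for other genes than the medians show, before and after thinning, and the erythroid shares can understate the background.

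Bmp2, a ligand close in sequence to Bmp4, had a different pattern: it was highest in macrophages, at 42.2 CPM (36.2 to 48.9) in WT against 30.4 CPM (24.6 to 37.1) in KO. Only 22.1% and 13.0% of macrophages held a UMI, and the 10 cells with most held 67.4% and 87.4% of the UMIs. Macrophages with a UMI of Mrc1, the mannose receptor, had 53.6 and 38.6 CPM of Bmp2, those without it 2.13 and 5.17 CPM. Most Bmp2 UMIs of macrophages thus lay in few cells, and the level was higher in Mrc1-positive than in Mrc1-negative macrophages in both libraries. The log2 ratio of -0.47 (-0.85 to -0.11) did not reach 1.5-fold.

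The largest Bmp2 ratio was in coelomic epithelium and gonadal ridge, the surface layer from which the gonads grow. There Bmp2 was 18.4 CPM (16.0 to 21.1, 206 UMIs) in WT against 3.44 CPM (2.16 to 5.21, 22 UMIs) in KO, 5.35-fold lower, with a log2 ratio of -2.42 (-3.13 to -1.78). In this class 17.5% of WT cells held a UMI of Bmp2, and in KO 6.67% did. The level was lower in KO in cells with a UMI of Lhx9, a transcription factor of the gonadal ridge (25.4 and 4.66 CPM), and in cells without it (11.4 and 2.03 CPM). In endothelial cells Bmp2 was 17.1 CPM (13.3 to 21.8) in WT against 8.19 CPM (5.74 to 11.3) in KO, for a log2 ratio of -1.07 (-1.69 to -0.46), again with the wider gap in Kit-positive cells (20.8 and 8.77 CPM). This endothelial ratio turned to 0.77 when cells were limited to under 5% mitochondrial UMIs. These are the 2 classes past 1.5-fold among the 7 with at least 10 Bmp2 UMIs in each library.

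In the stroma as a whole Bmp2 went the other way, from 7.34 to 8.60 CPM, a log2 ratio of 0.23 (0.09 to 0.37) that is under 1.5-fold. Smooth muscle held the most, 18.4 CPM in WT against 15.3 CPM in KO, and Tcf21-positive mesenchyme the least of the classes with at least 50 cells in both libraries, 3.35 and 3.21 CPM. Other mesenchyme hid opposite ratios: in cells with a UMI of Wnt2, a secreted Wnt ligand, Bmp2 was 12.8 and 6.94 CPM, and in those without it 6.02 and 10.6 CPM.

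Bmp5, a ligand of skeletal condensations, was 26.5 CPM (24.2 to 29.1) in WT sclerotome and 31.0 CPM (28.9 to 33.2) in KO sclerotome, where 27.8% and 30.6% of cells held a UMI (4.82% and 5.96% thinned). Every other stromal class with at least 50 cells in both libraries lay between 11.5 and 16.1 CPM. Its log2 ratio was 0.22 in sclerotome and 0.16 (0.06 to 0.26) in stroma. Coelomic epithelium again stood apart, with 9.20 CPM (7.51 to 11.2) in WT against 3.44 CPM (2.16 to 5.21) in KO, for a log2 ratio of -1.42 (-2.15 to -0.74).

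Bmp7, which is needed for kidney and eye development, was the one ligand without a class past 1.5-fold, among 8 with enough UMIs. Its stromal level was 15.6 CPM in WT against 15.1 CPM in KO, for a log2 ratio of -0.05 (-0.15 to 0.06). Sclerotome, coelomic epithelium, Tcf21-positive mesenchyme and other mesenchyme lay close together, between 13.0 and 18.5 CPM, while smooth muscle had 5.26 and 3.89 CPM. The smooth muscle log2 ratio of -0.44 turned to 1.78 under 5% mitochondrial UMIs and to 1.71 without Pdgfrb-positive cells in both libraries. The epithelial cells, 23 in WT and 31 in KO and so too few for the class comparison, had the highest Bmp7, 36.7 and 43.7 CPM, in 60.9% and 58.1% of cells. Neural crest and Schwann precursors had 14.8 and 10.0 CPM, a log2 ratio of -0.56.

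Gdf6, a growth and differentiation factor of the BMP family, was the most restricted of the ligands, with at least 10 UMIs in each library in 4 classes. Coelomic epithelium and gonadal ridge had 7.51 CPM in both libraries (5.99 to 9.29 from 84 UMIs in WT, 5.54 to 9.95 from 48 UMIs in KO), a log2 ratio of 0.00 with an interval of -0.54 to 0.53. It was detected in 15.2% and 16.1% of those cells, and in none of the 736 WT and 197 KO erythroid cells, where 3 UMIs would have been 0.225 and 0.753 CPM. Gdf6 thus did not share the low KO level of Bmp2, Bmp5 and Fst in this class. In Tcf21-positive mesenchyme it was 2.46 CPM in WT against 3.33 CPM in KO, and in other mesenchyme 0.821 and 1.46 CPM (31 and 66 UMIs), a log2 ratio of 0.83. Of those 4 classes it alone was past 1.5-fold.

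**Figure D2:**
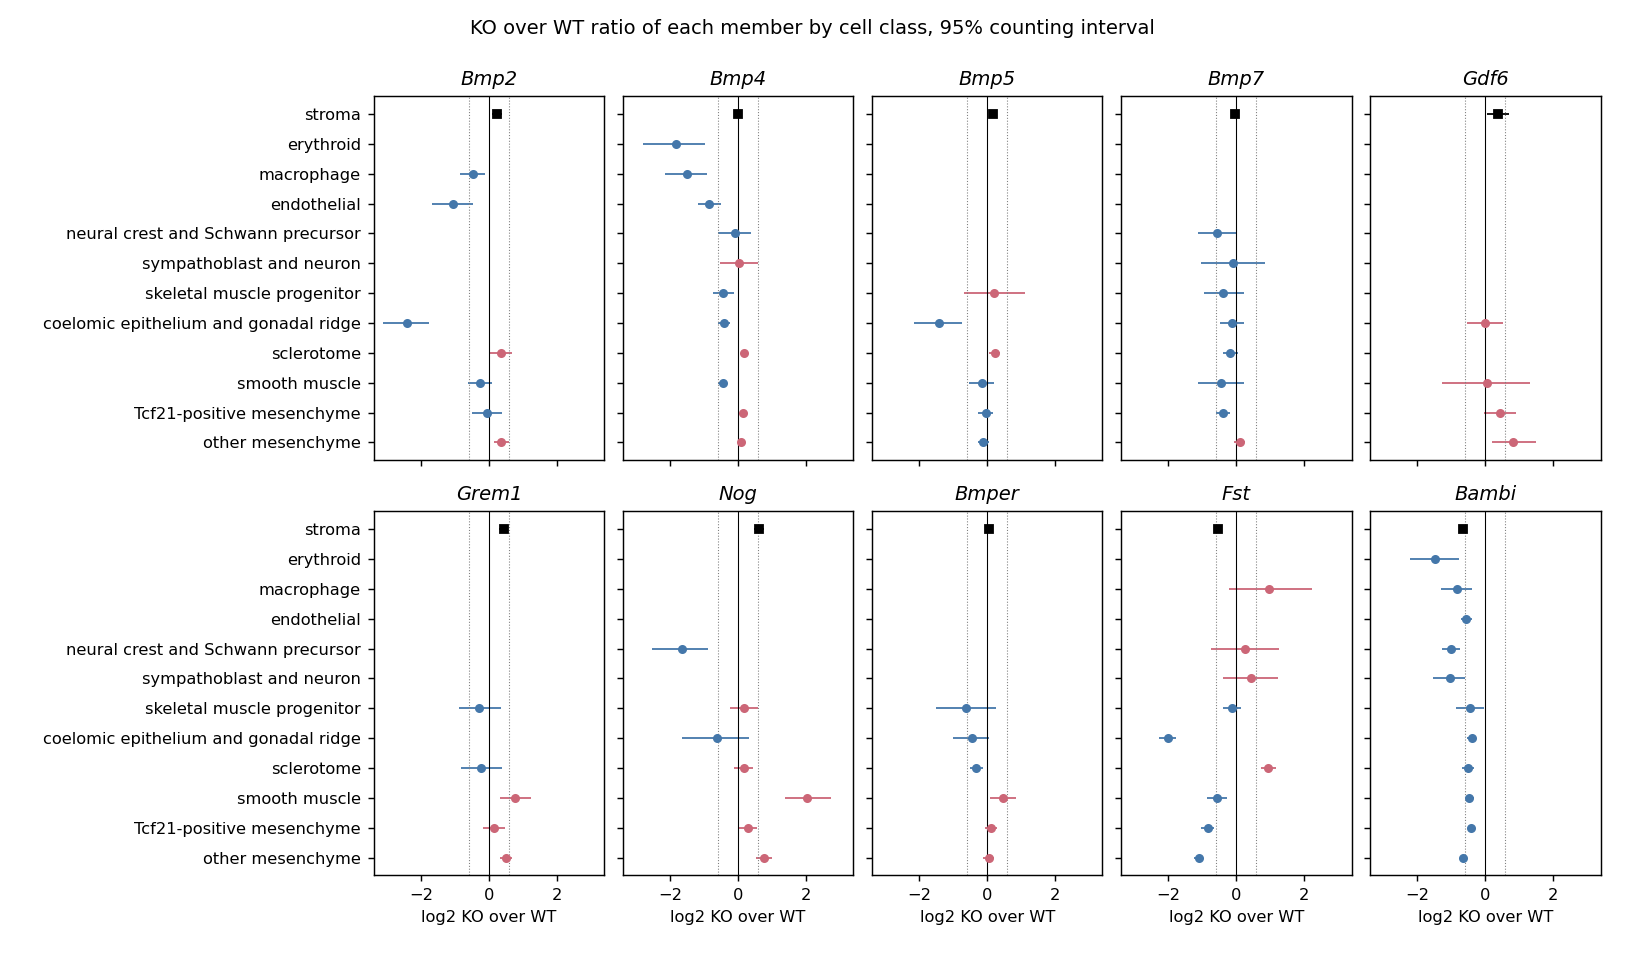
Log2 ratio of KO over WT CPM for each of the 10 genes (panels) in the stroma (black squares) and in each cell class with at least 10 UMIs in each library. Blue points lie below 0 and red points above 0, bars are 95% intervals for counting error only, and dotted lines mark 1.5-fold. Bambi lay below 0 in all 11 classes, though the share of all genes that do was not computed. Under other cell filters or gates Bambi was above 0 in macrophages, muscle progenitors, erythroid cells or sclerotome. Nog and Fst lay on both sides of 0.

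Fst, the first of the antagonists described, encodes follistatin, which binds activins tightly and several BMPs more weakly, and is known as a gene of the early ovary, as is Bmp2. In WT its level was highest in coelomic epithelium and gonadal ridge, at 99.7 CPM (94.0 to 106), and in KO that class had 24.6 CPM (20.9 to 28.7), 4.06-fold lower, with a log2 ratio of -2.02 (-2.27 to -1.78). In WT the RNA sat in few cells: 28.7% held a UMI, and 31 cells with at least 10 UMIs held 77.6% of the 1116. In KO, 3 such cells held 37.6% of the 157.

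The gap was wider in coelomic cells without a UMI of Upk3b, a gene of the mesothelial surface, where Fst was 199 CPM (184 to 215) in WT against 6.27 CPM (3.51 to 10.3) in KO, for a log2 ratio of -4.99 (-5.83 to -4.25). In Upk3b-positive cells it was 60.5 and 35.5 CPM. Lhx9-positive cells had 108 and 3.49 CPM, and Lhx9-negative cells 91.5 and 49.0 CPM. The low KO level was therefore most marked in cells with gonadal ridge RNA or without surface RNA. Such cells numbered 129 (Upk3b-negative) and 150 (Lhx9-positive) in WT and 70 and 73 in KO. Upk3b and Lhx9 are both among the marker genes that define this class, of which a cell needed at least 2. The splits by these genes are therefore not independent of each other.

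In 4 stromal classes Fst did not move one way. Other mesenchyme had 31.0 CPM (29.2 to 32.8) in WT against 14.4 CPM (13.3 to 15.5) in KO, for a log2 ratio of -1.11 (-1.25 to -0.97), and Tcf21-positive mesenchyme 23.8 and 13.3 CPM (-0.84, interval -1.03 to -0.65). The latter was -0.14 with gates on thinned cells, under 1.5-fold. Sclerotome had 12.6 CPM from 218 UMIs in WT but 24.3 CPM (22.4 to 26.2) in KO, for a log2 ratio of 0.95 (0.72 to 1.17), and smooth muscle had 30.8 and 20.8 CPM (-0.56). Sclerotome was thus the one of these classes with more Fst in KO. Its cells with a UMI of Uncx, a gene of the caudal sclerotome, had 6.89 and 17.7 CPM, a log2 ratio of 1.36, and those without it 24.2 and 35.6 CPM, a log2 ratio of 0.55 that is under 1.5-fold. The sum over the stroma, 24.8 and 17.1 CPM, had a log2 ratio of -0.54 (-0.63 to -0.45), short of 1.5-fold.

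The low KO level in other mesenchyme came with Wnt2. Fst in Wnt2-positive cells was 83.1 CPM (77.7 to 88.8) in WT against 14.0 CPM (11.3 to 17.3) in KO, and in Wnt2-negative cells 10.9 and 14.4 CPM. In Tcf21-positive mesenchyme the Wnt2-positive cells had 43.7 and 15.7 CPM, the others 17.8 and 12.8 CPM. Wnt2-positive cells of other mesenchyme numbered 527 in WT and 281 in KO, beside 1994 and 2692 without the RNA. Skeletal muscle progenitors, the leading class in KO, were alike in both libraries, at 40.2 CPM (34.5 to 46.5) and 36.9 CPM (33.2 to 40.8), with the RNA mainly in cells with a UMI of Myog, the regulator of muscle differentiation (45.8 and 43.4 CPM, against 8.83 and 10.1 CPM without it).

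**Figure D3:**
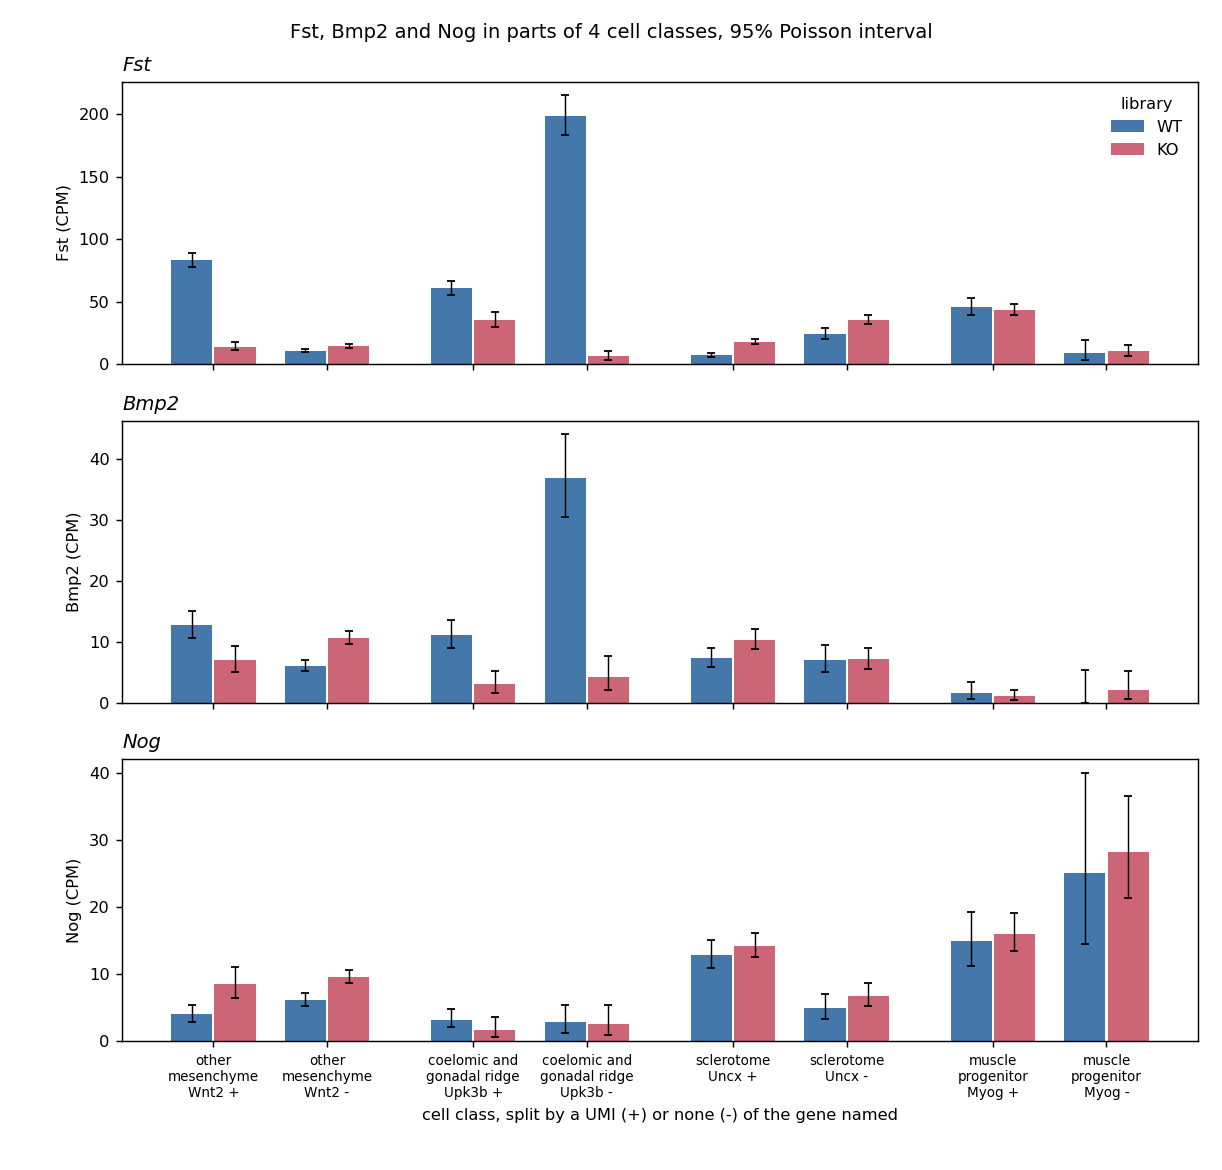
Level in CPM (vertical axis, from 0) of Fst, Bmp2 and Nog in parts of 4 cell classes split by a UMI of Wnt2, Upk3b, Uncx or Myog, in WT (blue bars) and KO (red bars), with 95% Poisson intervals. Fst stood at 83.1 CPM in WT against 14.0 CPM in KO in Wnt2-positive other mesenchyme, but at 10.9 and 14.4 CPM in Wnt2-negative cells.

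Nog, which encodes the BMP antagonist noggin, was highest in skeletal muscle progenitors, at 16.4 CPM (12.9 to 20.6) in WT against 18.4 CPM (15.9 to 21.3) in KO, in 29.1% and 29.0% of cells. Within them Myog-negative cells had 25.0 and 28.2 CPM and Myog-positive cells 14.9 and 16.0 CPM, the reverse of Fst. Sclerotome had 10.3 and 11.5 CPM, next in order in KO but below neural crest and Schwann precursors (13.2 CPM) in WT. Its Uncx-positive cells had more (12.9 and 14.3 CPM) than its Uncx-negative cells (4.92 and 6.81 CPM). The levels in muscle progenitors and sclerotome were within 1.5-fold of each other between the libraries.

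Smooth muscle and neural crest had Nog ratios of opposite sign. Smooth muscle had 2.41 CPM (1.59 to 3.50, 27 UMIs) in WT against 9.85 CPM (7.70 to 12.4, 71 UMIs) in KO, 4.09-fold higher, with a log2 ratio of 2.03 (1.37 to 2.73). The share of smooth muscle cells with a Nog UMI was 4.32% and 12.7% (0.360% and 0.621% thinned), and cells with a UMI of Actg2, a smooth muscle actin, had 2.02 and 10.0 CPM. Neural crest and Schwann precursors had 13.2 CPM (10.3 to 16.7, 68 UMIs) in WT against 4.17 CPM (2.43 to 6.67, 17 UMIs) in KO, for a log2 ratio of -1.67 (-2.53 to -0.88), in 19.8% and 5.59% of cells (4.40% and 0.621% thinned). The difference between these ratios was not tested, since each rests on the same pair of libraries. Other mesenchyme had 5.54 and 9.42 CPM (0.77, interval 0.53 to 1.01), and the stroma 6.41 and 9.80 CPM (0.61, interval 0.47 to 0.76). With every stromal class given the same weight in both libraries, the stromal Nog ratio was 0.53, short of 1.5-fold.

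Grem1 encodes the BMP antagonist gremlin 1. Of its UMIs, 50.1% in WT and 61.8% in KO lay in other mesenchyme, which held 25.1% and 31.8% of all UMIs. Its level there was 10.2 CPM (9.20 to 11.3) in WT against 14.5 CPM (13.4 to 15.6) in KO, for a log2 ratio of 0.50 (0.32 to 0.69), and Wnt2-positive cells, in which Fst was lower in KO, had 10.5 and 24.3 CPM of Grem1. Smooth muscle had 7.22 and 12.4 CPM (81 and 89 UMIs), a log2 ratio of 0.77 (0.32 to 1.23), and was the one class past 1.5-fold of 5, a ratio that was 0.29 with gates on thinned cells. Sclerotome had 2.43 and 2.08 CPM of Grem1. Over the stroma Grem1 was 6.81 CPM in WT against 9.17 CPM in KO, for a log2 ratio of 0.43 (0.28 to 0.57).

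Bmper encodes a secreted protein that binds BMPs and can restrain or promote their signal. It was 24.3 CPM (22.1 to 26.8) in WT against 19.4 CPM (17.8 to 21.1) in KO sclerotome, a log2 ratio of -0.33 (-0.52 to -0.14). It had a narrow range elsewhere in the mesenchyme, from 11.1 CPM in WT smooth muscle to 18.7 CPM in KO Tcf21-positive mesenchyme over the classes of at least 50 cells in both libraries. The stromal sum was 15.9 and 16.4 CPM, a log2 ratio of 0.04 (-0.06 to 0.14). Bmper passed 1.5-fold in 1 of 6 classes, skeletal muscle progenitors, with 20 UMIs in WT and 29 in KO (4.44 and 2.87 CPM), and under 5% mitochondrial UMIs that log2 ratio turned to 0.74.

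Bambi, a membrane protein like a type I receptor but without a kinase domain, was the one gene below 0 in every class, 11 of 11, with 5 past 1.5-fold. In macrophages, muscle progenitors, erythroid cells and sclerotome at least 1 alternative cell filter or gate put Bambi above 0, and no alternative scaling did in any class. Of the 11 classes compared, the endothelium led, at 192 CPM (178 to 206) in WT against 129.9 CPM (119 to 141) in KO. Its log2 ratio was -0.56 (-0.72 to -0.40), and 77.6% and 73.8% of its cells held a UMI. In KO its interval met that of Tcf21-positive mesenchyme at 116 CPM (112 to 121). Epithelial cells, too few for the comparison, held 1.70% and 1.18% of Bambi UMIs but 0.707% and 0.467% of all UMIs. Endothelial cells held 4.97% and 6.26% of Bambi UMIs and 2.56% and 3.09% of all UMIs. The Bambi level of epithelial cells was thus the higher. The wider gap was in Kit-positive endothelial cells (205 and 125 CPM) and the smaller in Kit-negative ones (164 and 140 CPM). Neural crest and Schwann precursors had 82.0 and 40.7 CPM, a log2 ratio of -1.01, and sympathoblasts and neurons 54.9 and 26.6 CPM, a log2 ratio of -1.05. The median depth of sympathoblasts and neurons was 23379 UMIs in WT but 7977 in KO, and its part in ratios of this class was not tested.

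In the stroma Bambi was 111.5 CPM (109 to 114) in WT against 70.2 CPM in KO, for a log2 ratio of -0.67 (-0.71 to -0.63). With the same mix of classes in both libraries it was -0.53, short of 1.5-fold. Other mesenchyme had 109.9 and 69.9 CPM (-0.65), and there too Wnt2-positive cells had the wider gap (164 and 75.9 CPM, against 88.9 and 68.9 CPM without Wnt2). Smooth muscle had 129 and 92.6 CPM, Tcf21-positive mesenchyme 157 and 116 CPM and sclerotome, the stromal class of at least 50 cells with least Bambi, 30.9 and 21.7 CPM. Bambi lies on chromosome 18 at 3507923-3516404 on the plus strand.

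Read as a group, 1 of the 10 genes was past 1.5-fold lower in KO stroma (Bambi) and 1 higher (Nog), where 4.31% and 4.44% of 13773 genes with at least 100 UMIs were lower or higher by that much. The median log2 ratio of the 10 was 0.10, beside 0.0267 over those genes. Over all cells 2 were lower (Fst and Bambi) and 1 higher (Nog), against 5.06% and 5.75% of genes. Of the 74 pairs of gene and class with at least 10 UMIs in each library, 17 were lower and 6 higher in KO, where 7.87% and 5.4% of all such pairs over every gene were. The 17 include 2 in erythroid cells, and the counting interval spanned 0 for 2 of the 17 (Nog in coelomic epithelium and Bmper in muscle progenitors) and 1 of the 6 (Fst in macrophages). The shares of genes given below for each class count genes with at least 100 UMIs, a minimum that 3 of the 17 and 3 of the 6 do not reach. The shares in parentheses count genes with at least 10 UMIs in each library, as for the 10 genes.

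Coelomic epithelium and gonadal ridge had the most genes lower: 4 of the 9 with enough UMIs (Bmp2, Bmp5, Nog and Fst) and none higher, with a median of -0.46, where 4.71% of 10014 genes were lower and 2.84% higher. Nog there was 3.13 and 2.03 CPM from 35 and 13 UMIs, with an interval of -1.66 to 0.33 that spans 0. Held to the same 10 UMIs in each library, 5.71% of genes were lower in this class and 5.67% higher. Sclerotome had 0 of 9 lower and 1 higher (Fst), against 2.3% and 5.02% of genes, and smooth muscle 0 of 10 lower and 2 higher (Nog and Grem1), against 5.54% and 4.36% (6.77% and 7.1%). Other mesenchyme had 2 lower (Fst and Bambi) and 2 higher (Nog and Gdf6) of 10, against 3.54% and 4.06% (5.05% and 5.93%). In Tcf21-positive mesenchyme 1 of 10 was lower (Fst) and none higher, against 2.74% and 2.68%.

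Classes outside the mesenchyme had fewer of the 10 genes to count. In neural crest and Schwann precursors 2 of 5 were lower (Nog and Bambi) and 0 higher, against 3.06% and 2.85% of genes (5.07% and 6.05%), and in endothelial cells 2 of 3 were lower (Bmp2 and Bmp4), against 3.98% lower and 1.86% higher (7.56% and 3.4%). Macrophages had 2 of 4 lower (Bmp4 and Bambi) and 1 higher, Fst, at 2.61 and 5.12 CPM with 16 KO UMIs in 3 cells (log2 ratio -2.90 without the deepest 5% of cells), against 4.85% and 2.12% (6.8% and 5.32%). Sympathoblasts and neurons had 1 of 4 lower (Bambi), against 5.25% lower and 2.94% higher, and muscle progenitors 1 of 8 (Bmper), against 3.7% and 2.45% (6.91% and 3.25%). In erythroid cells 0.485% of genes were higher. Mesenchyme markers were at 764 and 659 CPM in neural crest and Schwann precursors, 461 and 662 CPM in sympathoblasts and neurons, 1019 and 650 CPM in muscle progenitors and 2811 and 1863 CPM in coelomic epithelium, and their part in these ratios was not tested.

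The study divides WT stroma by Pdgfrb and Cspg4, the gene of the pericyte proteoglycan NG2. Cells with both RNAs (DP, 405 cells), with Pdgfrb alone (PDGFRβ-S, 2086), with Cspg4 alone (NG2-S, 245) and with neither (DN, 2952) had median depths of 24153, 16246.5, 14141 and 10590 UMIs, so the gates also sort cells by depth. DP cells had the most Bmp2, 15.2 CPM (13.2 to 17.4), where the other gates lay between 5.67 and 6.47 CPM with overlapping intervals. DP and PDGFRβ-S cells had the most Bmp4, 114 CPM (108 to 120) and 106 CPM (103 to 109), while DN cells had 79.1 CPM (76.2 to 82.1) and NG2-S cells 60.8 CPM (53.6 to 68.7).

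NG2-S cells, the lowest in Bmp4, had the highest Bmper, 27.9 CPM (23.1 to 33.4) against 14.6 to 18.3 CPM in the other gates, and the highest Nog, 10.2 CPM (7.36 to 13.7), though its interval met that of DN cells at 7.34 CPM. They had the lowest Grem1, 2.37 CPM (1.13 to 4.35) against 5.96 to 7.22 CPM, and the lowest Bambi, 52.3 CPM (45.6 to 59.7) against 88.7 to 135 CPM. Fst was highest in DP cells, at 33.2 CPM (30.2 to 36.4), and lowest in DN cells, at 19.6 CPM (18.2 to 21.2). Bmp5 varied little, from 14.4 to 17.5 CPM, and Bmp7 was lowest in DP cells, at 11.6 CPM (9.81 to 13.5).

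**Figure D4:**
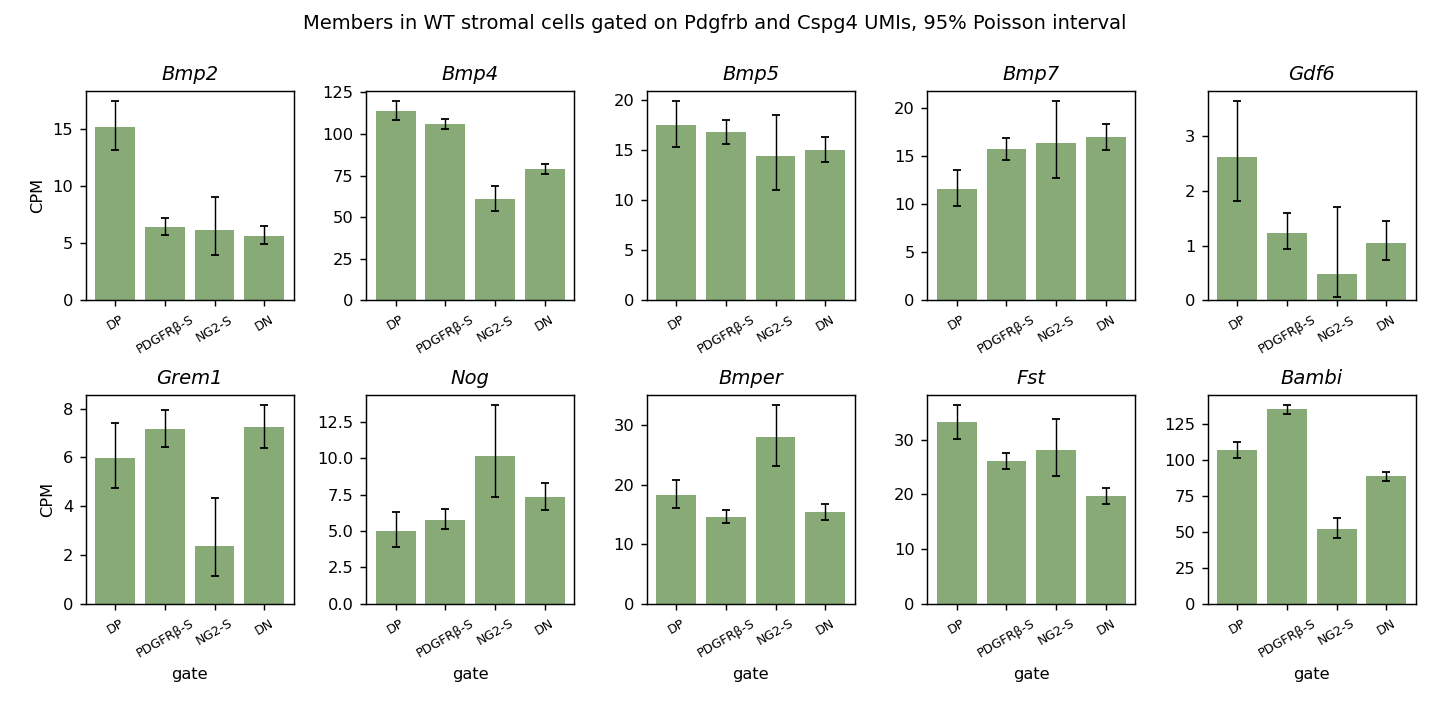
Level in CPM (vertical axis, from 0 and differing between panels) of each of the 10 genes in WT stromal cells with Pdgfrb and Cspg4 RNA (DP), Pdgfrb alone (PDGFRβ-S), Cspg4 alone (NG2-S) or neither (DN), with 95% Poisson intervals. Bmp2 was highest in DP cells at 15.2 CPM, Bmper in NG2-S cells at 27.9 CPM and Bambi in PDGFRβ-S cells at 135 CPM.

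The rest of the pathway was read from lists by role. Of 12 further ligands, 8 had at least 10 UMIs in both stromal sums. The 6 that were higher in KO were Bmp3 (1.86 and 4.12 CPM), Gdf2 (0.299 and 0.531 CPM), Gdf5 (1.66 and 3.12 CPM), Gdf10 (10.7 and 22.0 CPM), Inhba (9.62 and 14.7 CPM) and Inhbb (0.169 and 0.425 CPM). None of the ligands was lower past 1.5-fold, and the median log2 ratio of the 8 was 0.87. Over all genes with at least 10 UMIs in each stromal sum, 5.57% were lower and 6.48% higher. Ratios of these further pathway genes were not run under the alternatives. One of those was the same stromal mix, with which the stromal ratios of Nog and Bambi were short of 1.5-fold. Sclerotome was 12.8% of WT and 20.1% of KO cells, and its part in the ligand ratios was not tested. The ligand with the largest CPM, Gdf11, was 16.5 and 20.2 CPM. Inhba and Inhbb encode the activin subunits that follistatin binds, and Inhbb in coelomic epithelium, where Fst was lower in KO, was 5.72 CPM in WT against 24.4 CPM in KO.

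Of 12 further antagonists and modulators, 1 was lower in KO stroma (Fstl3, a follistatin-like protein, 7.33 and 4.05 CPM) and 2 were higher, the antagonist gene Sostdc1 (1.43 and 2.70 CPM) and Tll1, a protease that cuts the antagonist chordin (2.06 and 3.38 CPM). These counts too stand beside 5.57% lower and 6.48% higher over all genes. The largest CPM was that of Fstl1, 234 and 254 CPM. None of 8 receptors passed 1.5-fold (median 0.14, with the largest CPM for Bmpr1a), and none of 6 transducers (median 0.13, with the largest CPM for Smad4). Of 6 target genes 1 was lower, Msx1, at 51.8 and 32.2 CPM, while Id3, with the largest CPM, was 711 and 714 CPM. Id1 was 159 and 215 CPM, Id2 298 and 320 CPM and Id4 24.6 and 28.7 CPM. Msx2 was 9.80 and 7.20 CPM, and each of these was under 1.5-fold.

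The target genes differed from class to class. In smooth muscle Msx1 was 23.5 CPM in WT against 6.24 CPM in KO, whereas Id1 was 113 and 192 CPM and Id2 138 and 258 CPM. There 2 of 6 targets were lower and 2 higher, beside 6.77% and 7.1% of genes with at least 10 UMIs in each library. In coelomic epithelium Msx1 was 50.1 and 6.26 CPM and Msx2 8.76 and 1.56 CPM. Id3 and Id2 were also below their WT level there, by less than 1.5-fold, at 553 and 377 CPM and at 234 and 198 CPM. In sympathoblasts and neurons Id3 (459 and 317 CPM, under 1.5-fold) and Id4 (20.8 and 8.34 CPM) stood below WT beside Msx1 (28.8 and 6.78 CPM). So did Id2, Id3 and Id4 in neural crest and Schwann precursors, where Msx2 was 22.7 and 9.07 CPM. The Id genes named in these classes and in coelomic epithelium were picked after their values were seen. All are below WT, so they give no direction for the targets of these classes. Id1 is not among them. Its level was higher in KO in smooth muscle, endothelial cells (143 and 172 CPM) and macrophages (31.0 and 63.0 CPM), and lower in erythroid cells (19.6 and 13.3 CPM). Over genes with at least 10 UMIs in each library, 5.71% were lower and 5.67% higher in coelomic epithelium. The shares were 7.58% and 7.1% in sympathoblasts and neurons, and 5.07% and 6.05% in neural crest and Schwann precursors.

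The genes most like each of the 10 over the same 22 points were searched among 12349 genes, and r is again a description. Bmp4 was closest to Snai2 (r = 0.967), a transcription factor of mesenchymal cells, and to Ccdc80 (0.955). Bmp5 was closest to Angpt1 (0.940), the angiopoietin ligand of Tie2, and Cxcl12 (0.925), a chemokine that retains blood stem cells in the marrow. Bmper was closest to Fgfr2 (0.961) and Smad9 (0.940), itself a BMP transducer. Gdf6 was closest to Wt1 (0.947), a marker used to define its leading class, and Rassf10 (0.938).

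For the remaining genes r was lower or the partners less familiar. Bmp7 was closest to Efna2 (0.954) and Dlg3 (0.948), and Bambi to Rbpms (0.942) and Sult5a1 (0.919). Fst was closest to Flnc (0.915), a muscle filamin, and Gas1 (0.909), and Nog to Rgma (0.911), a co-receptor of BMPs, and Fndc3c1 (0.872). Bmp2 was closest to Idua (0.878), the gene of a lysosomal enzyme, and Fuca2 (0.846). Grem1 was closest to Prrx1 (0.850), a marker used for the mesenchyme, and Pgm5 (0.828).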

How the data were processed

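The deposited files hold raw UMI counts per gene and barcode, which the authors made with Cell Ranger 3.1.0 against mm10 (GRCm38) per the submitters' processing notes, from 1 droplet library per genotype loaded for recovery of 7000 cells. No normalization was applied by the authors to these counts. The unfiltered barcodes hold 179743201 WT and 174597654 KO UMIs, and after the filters 150175081 and 142222182 UMIs remained.

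From these counts, cells were assigned to classes by at least 2 different marker genes and a summed marker level of at least 200 CPM (800 CPM for erythroid, white blood, endothelial and neuronal cells, 1600 CPM for smooth muscle). Mixed cells (24 WT, 12 KO) were left out of the classes, and no doublet caller was run. They passed the gates of several lineages or tied between coelomic epithelium, sclerotome, smooth muscle and gastro-splenic mesenchyme. UMIs were summed per class and divided by the class total (CPM), with exact Poisson intervals for levels, exact binomial intervals for shares and the exact conditional interval for KO over WT ratios. The background for a 1.5-fold difference is every gene with at least 100 UMIs in the class. Free RNA, estimated from Hbb-y in barcodes of at most 100 UMIs, was 2.68% of WT and 5.32% of KO stromal UMIs and was not removed. Counts are of 3′ ends, so levels were not compared between genes, except that the gene with the largest CPM of each role was picked to be named.

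The 10 genes, the markers and the 44 further pathway genes were chosen with earlier results of these data known. The CPM minimums and the splits by Wnt2, Upk3b, Lhx9, Uncx, Myog, Actg2, Mrc1 and Kit were chosen after values were seen, and the splits hold cells with or without a UMI, which depends on depth. The named pathway genes are that gene of each role and those past 1.5-fold with at least 10 UMIs in each library in some class. Id genes in coelomic epithelium, neurons and neural crest were added after their values were seen. The similar genes are the 2 with the highest r of log2(CPM + 1) for each of the 10, among genes of at least 500 UMIs. Of the 10, 3 share exon bases with a gene on the other strand (Bmp4, Bmp5 and Fst), and none with a gene on their own strand. The promoter table held Bmp4, Bmp5, Grem1 and Bmper. The 13 planned and 4 added alternatives covered cell filters, gates, thinning, Pdgfrb-positive cells, free RNA, stromal mix, TMM scaling and the background's minimum. They also covered mixed cells, the deepest cells of each class and, for levels alone, non-mesenchymal cells with mesenchyme markers. Doublets were not identified in any of them. The ratio and interval code was tested on simulated data. Python 3.11.15, numpy 2.4.6, scipy 1.17.1, pandas 2.3.3, matplotlib 3.10.9, R 4.3.3 and edgeR 4.0.16 (for TMM factors alone) were used.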

Additional observations from a re-analysis of the deposited data

Results flagged for a closer look

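Nog had log2 KO over WT ratios of opposite sign in smooth muscle (2.03) and in neural crest and Schwann precursors (-1.67), with counting intervals that did not meet. The difference was not tested, because both ratios rest on 1 WT and 1 KO library. Fst likewise had a log2 ratio of 0.95 in sclerotome and of -2.02 in coelomic epithelium and gonadal ridge, and this difference was not tested either.

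The 24 mixed WT cells, which entered no class, had 258 CPM of Fst (222 to 298), above every class in the comparison. They passed the gates of several lineages or tied between regional classes such as sclerotome and smooth muscle, and these cases were not counted apart. Only 7 of them held a Fst UMI, and 1 cell held 62 of the 184. The 12 such KO cells had 20.9 CPM (10.0 to 38.5, 10 UMIs). Their mesenchyme markers stood at 6347 CPM (WT) and 421 CPM (KO).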

How the results depend on the processing

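No paired analysis was possible because each genotype is 1 library. The ratios past 1.5-fold the same way in all 14 alternatives that give a ratio were those of Fst, Bmp2 and Bmp5 in coelomic epithelium (Fst -3.37 to -1.57, Bmp2 -3.58 to -1.59), Fst in sclerotome (0.79 to 1.46) and other mesenchyme (-1.73 to -0.62), and Nog in smooth muscle (1.59 to 3.69). Nog in neural crest passed in all 13 that gave it a value. In the stroma the sum for Nog passed in 9 of 14 (0.44 to 0.92), for Bambi in 11 (-0.90 to -0.50) and for Fst in 3 (-1.24 to -0.24). Of 1033 class ratios under the alternatives 898 stayed within their counting interval, 129 moved beyond it and 6 of those past 1.5-fold changed sign, and 3 more had no value because nothing was left of the gene in 1 library. The same stromal mix and the stroma without gastro-splenic mesenchyme could not change a class ratio. For class ratios, the 14 alternatives and the 898 values therefore include some fixed by design.

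The counts moved as follows. Under 5% mitochondrial UMIs, 2 of the 10 genes were higher in KO stroma and 14 pairs of gene and class were higher. With at least 3 markers 2 genes were lower and 0 higher, and with gates on thinned cells 2 were lower. With Pdgfrb-positive cells removed from KO alone 26 pairs were lower, and with them removed from both libraries 0 genes were lower, 2 higher and 15 pairs higher. With the same stromal mix 0 were lower and 0 higher, and with TMM factors 0 were higher. With genes of at least 20 UMIs as background 6.53% were lower and 7.60% higher, and with at least 10 UMIs in each library, a choice made after the data were seen, 5.57% and 6.48%. The sign turned under 5% mitochondrial UMIs for Bambi in macrophages (0.12), Bmp2 in endothelial cells (0.77) and Bmper in muscle progenitors (0.74), with gates on thinned cells for Bambi in erythroid cells (0.52), without Pdgfrb-positive cells in both libraries for Bmp4 in macrophages (0.25), and without the deepest 5% of each class for Fst in macrophages (-2.90), an alternative added after the data were seen. The cause of these changes was not tested.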
